A study of Mus musculus with 16 samples.

Results

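A set of 38 genes of the primary cilium and of intraflagellar transport (IFT) was followed in the mouse hippocampus after status epilepticus (SE), a prolonged seizure, and under saline. The genes were taken by name: every measured gene called Ift, Bbs, Tctn or B9d with a number, and Wdr19, Wdr35, Wdr34, Wdr60, Ttc21b, Kif3a, Kif3b, Kif17, Dync2h1, Mks1, Cep290 and Rpgrip1l. They make up 38 of the 22180 genes that had an array probe set with a single gene symbol. Tctn1 and Arl13b, which the same naming rule lists, had no such probe set and were not analysed here. The set was proposed because Wdr19 was lower after SE in these same arrays. The SE difference of Wdr19 is therefore a description with no test, and the SE differences of the other 37 genes come from the contrast that led to the choice and lend no independent support to it.

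The study placed 16 mice, each on its own Affymetrix array, in 4 groups of 4. The groups were Astro-D2KO mice after SE, Astro-D2KO mice under saline, control mice after SE and control mice under saline. All were C57BL/6 mice aged 8 to 10 weeks, and all carried a glial cre. Astro-D2KO mice also carried floxed Dio2 (labelled Flox D2), so that the type 2 deiodinase, which makes the active thyroid hormone T3, is deleted where the cre acts, and control mice were wild type for Dio2 with the same cre. The labels do not name the promoter that drives the cre. Lithium chloride (10 mEq/kg) was given to every mouse, 18 h before pilocarpine (65 mg/kg) in the SE groups or saline in the others. No saline mouse had pilocarpine, so effects of the drug and of the seizure cannot be told apart. The labels state neither the sex of the mice nor how long after pilocarpine tissue was taken.

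The primary cilium is a single, immotile antenna that most neurons and astrocytes of the hippocampus carry, and that gathers receptors such as those for somatostatin, serotonin and hedgehog ligands. It is built and maintained by IFT, in which the IFT-B complex travels outward with kinesin-2 motors and the IFT-A complex returns with the dynein-2 motor. The BBSome is a coat-like complex that rides on IFT and carries membrane proteins out of the cilium, and the transition zone is the gate at its base.

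The arrays correlated with each other at 0.969 to 0.990 over all probe sets, and their medians lay between 5.77 and 5.82 on the log2 scale. Dio2 stood at 8.91, 7.03, 7.17 and 7.12 in the Astro-D2KO SE arrays 1 to 4, between 6.52 and 7.09 in the Astro-D2KO saline arrays, between 7.99 and 9.51 in the control SE arrays and between 7.87 and 8.28 in the control saline arrays. The array labelled Astro-D2KO SE replicate 1 thus had, against its label, more Dio2 signal than replicates 2 to 4. Control SE replicate 4 had the lowest Dio2 of its group, at 7.99, with 9.11 to 9.51 in the other 3 arrays, and counts are also given without both arrays. Whether the labels of these arrays were exchanged was not tested. Neuron, astrocyte and dentate granule cell markers were all measured, with list means of 10.8 to 10.9, 8.86 to 9.08 and 7.54 to 8.65 over the 16 arrays. Markers of the choroid plexus, a tissue of the ventricle beside the hippocampus, had list means of 7.52, 7.43, 7.08 and 7.81 in Astro-D2KO SE replicate 4, Astro-D2KO saline replicate 3, control SE replicate 1 and control saline replicate 3. They lay between 5.78 and 6.43 in the other 12 arrays. The counts below were repeated without those 4 arrays.

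After SE the cilium and IFT genes were lower as a set in every SE array of both genotypes. The median of the 38 genes, taken as the difference from the control saline mean, was -0.34, -0.27, -0.33 and -0.37 in Astro-D2KO SE arrays 1 to 4 and -0.08 to 0.05 in the Astro-D2KO saline arrays. It was -0.32, -0.28, -0.37 and -0.28 in control SE arrays 1 to 4 and -0.03 to 0.07 in the control saline arrays. No SE array reached the range of the saline arrays of its genotype, while the median of all genes moved by at most 0.033 in any array. In each SE array 33 to 35 of the 38 genes lay below the control saline mean, as against 15 to 29 in the Astro-D2KO saline arrays and 11 to 24 in the control saline arrays. In a bulk tissue sample fewer cells of a type and less RNA per cell cannot be told apart.

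**Figure D1:**
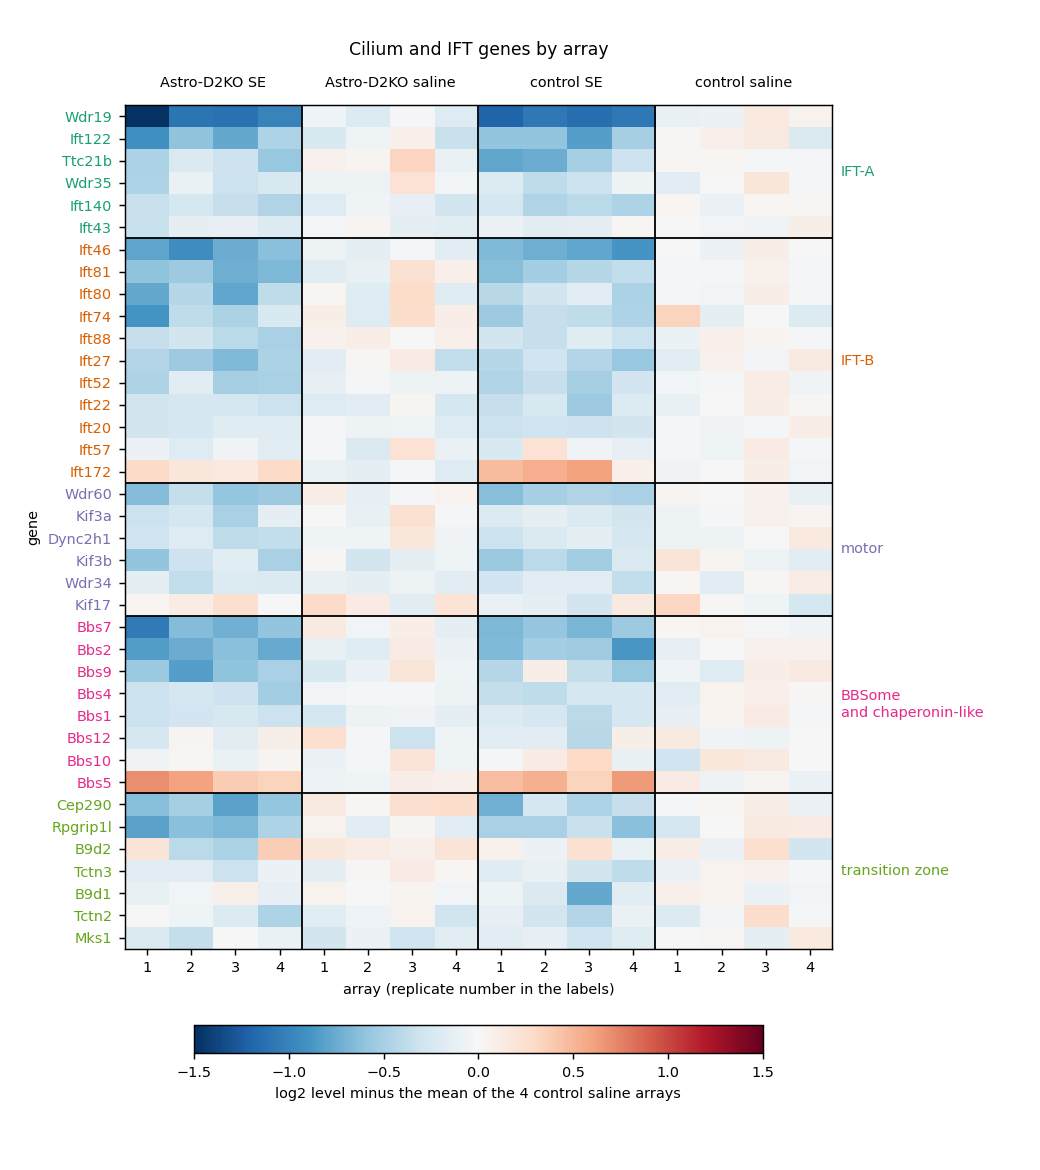
Level of each of the 38 genes (rows, grouped and coloured by role) in each of the 16 arrays (columns, by group and replicate number), drawn as the log2 level minus the mean of the 4 control saline arrays. Most rows are blue in both SE groups, Wdr19 the deepest, and the rows of Bbs5 and Ift172 are red there.

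By limma with Benjamini-Hochberg adjustment over all 22180 genes, at a threshold of 0.05, 19 of the 38 genes were lower and 2 higher after SE in Astro-D2KO mice. The background there was 12.6% of all genes lower and 7.49% higher. In control mice 24 of the 38 were lower and 2 higher, where 13.7% of all genes were lower and 8.42% higher. Without Wdr19 the counts were 18 lower and 2 higher in Astro-D2KO mice and 23 lower and 2 higher in control mice. The median log2 difference of the 38 genes was -0.30 in Astro-D2KO mice and -0.31 in control mice, and that of all genes was -0.01 and -0.02. All 4 SE arrays lay below all 4 saline arrays for 20 of the 38 genes in Astro-D2KO mice (15.1% of all genes) and for 25 in control mice (13.7% of all genes). These counts describe the contrast from which the set was proposed, and nothing is read from them.

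Most of the differences were modest. Of the 38 genes, 6 in Astro-D2KO mice and 5 in control mice were lower by at least 1.5-fold and past the threshold. Of all 22180 genes, 482 in Astro-D2KO mice and 442 in control mice were. The genes lower in Astro-D2KO mice and those lower in control mice shared 17, which is 89.5% of the 19 and 70.8% of the 24. For all genes the shared falls were 71.8% of those in Astro-D2KO mice and 66.1% of those in control mice. The calls in both genotypes rest on 1 spread per gene common to both. The differences in Astro-D2KO and control mice correlated at r = 0.88 across the 38 genes and at 0.87 across all genes, from arrays that are not shared. Without the 4 arrays with the highest choroid plexus means, the counts were 14 lower and 1 higher in Astro-D2KO mice and 14 lower and 2 higher in control mice. All genes then had 1621 and 1927 falls in place of 2798 and 3040. The calls lost were those of Bbs4, Dync2h1, Ift27, Ift52, Ttc21b and the higher Ift172 in Astro-D2KO mice, and those of Bbs1, Bbs4, Dync2h1, Ift22, Ift74, Ift80, Ift88, Kif3b, Tctn3 and Wdr34 in control mice. The medians of the 38 genes were then -0.25 in Astro-D2KO mice and -0.27 in control mice, with 33 of 38 values below 0 in both. Without the arrays labelled Astro-D2KO SE replicate 1 and control SE replicate 4, the counts were 19 lower and 2 higher in Astro-D2KO mice and 21 lower and 2 higher in control mice.

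**Figure D2:**
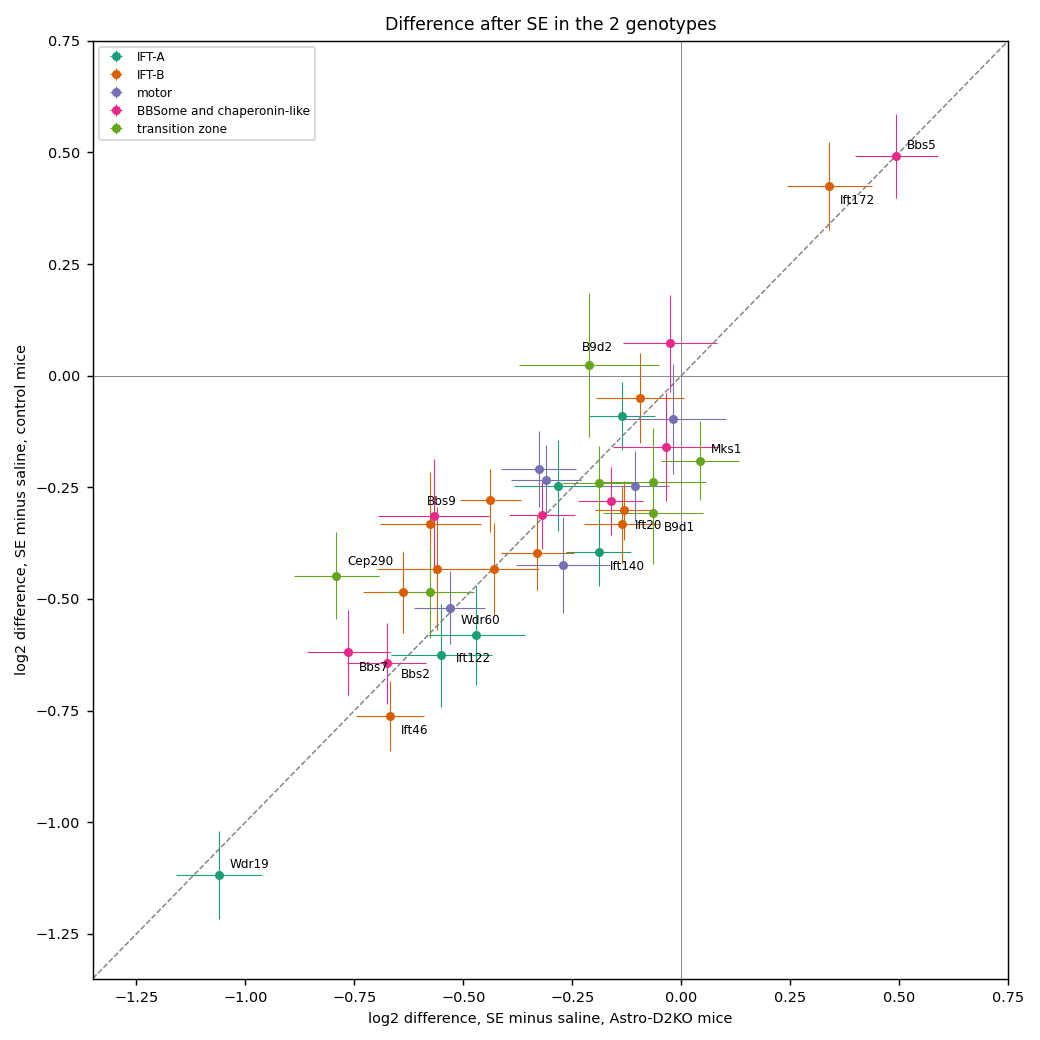
Log2 difference after SE for the 38 genes in Astro-D2KO mice (horizontal) and in control mice (vertical), with standard errors as bars and the line of equal difference dashed. Wdr19 lies apart at -1.06 and -1.12, Bbs5 and Ift172 lie above 0 in both, and most other genes lie below 0 near the line.

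Promoters of the set were read from RefSeq windows (build GRCm38.p6) that run from 250 bases before to 50 after each start, because many ciliary genes are known to carry an X-box, the element bound by RFX transcription factors. Of the 38 genes 35 matched a window. The X-box was searched on both strands as its paired form, GTTNCCNNGGNAAC, which reads the same on both strands, and as its single element, GTTGCC or GGCAAC, which a paired form can contain. The paired form was found in 2 of the 35 genes (5.71%), Bbs7 and Mks1, and in 0.529% of 27025 genes with a window. The single element was found in 17 of the 35 (48.6%) and in 14.1% of all. It was in 4 of the 14 matched genes that were lower after SE in both genotypes and in 7 of the 10 that passed in neither. Stretches upstream of the start are shown for the genes with the paired form, for Wdr19, which chose the set, and for the pair of genes that rose; capitals mark the paired form's outer elements, and all are printed on the gene's own strand.
Bbs7: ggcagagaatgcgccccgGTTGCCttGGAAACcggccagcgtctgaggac
Mks1: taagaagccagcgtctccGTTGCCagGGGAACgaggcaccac
Wdr19: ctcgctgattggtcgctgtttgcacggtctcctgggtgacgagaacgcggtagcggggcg
Bbs5: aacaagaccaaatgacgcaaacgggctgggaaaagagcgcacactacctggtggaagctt
Ift172: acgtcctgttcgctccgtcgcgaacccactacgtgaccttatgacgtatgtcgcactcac
The Bbs7 stretch is chr3:36613479-36613528 (minus strand), the Mks1 stretch chr11:87853173-87853214 (plus strand) and the Wdr19 stretch chr5:65199636-65199695 (plus strand). The Bbs5 stretch is chr2:69647111-69647170 (plus strand) and the Ift172 stretch chr5:31291115-31291174 (minus strand). The Wdr19 window held neither of these exact patterns. Looser forms of the X-box were not searched, so their absence from this window is not shown. The Bbs5 and Ift172 windows held the single element, not wholly before the start and so outside the stretches shown, and both genes are among the 17. Of the genes with the paired form, Bbs7 fell by 0.76 in Astro-D2KO mice and by 0.62 in control mice, while Mks1 stood at 0.04 and -0.19 and did not pass. A match is a run of letters and not a measured binding site.

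IFT-A, the complex of return transport, had the largest single difference. Wdr19 (IFT144), a core IFT-A subunit, stood at 6.60, 6.99, 6.97 and 7.08 in Astro-D2KO SE arrays, against 8.03, 7.88, 8.07 and 7.90 in Astro-D2KO saline arrays. It stood at 6.89, 7.02, 6.96 and 7.01 in control SE arrays, against 7.98, 7.99, 8.23 and 8.14 in control saline arrays. The SE and saline arrays were far apart in both genotypes, and the lowest array of all was the one labelled Astro-D2KO SE replicate 1. The difference was -1.06 ± 0.098 (standard error of the fit, as are all errors after log2 differences) in Astro-D2KO mice, 2.09-fold lower, and -1.12 ± 0.098 in control mice, 2.17-fold lower. The coding genes next to Wdr19 differed less: Klhl5 by -0.30 in Astro-D2KO and -0.34 in control mice, and Rfc1 by -0.38 and -0.27. Klhl5 passed the threshold in both genotypes, and Rfc1 passed in Astro-D2KO mice but not in control mice. These neighbours were looked up after the values were seen.

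Of the other 5 IFT-A genes 2 fell in Astro-D2KO mice and 3 in control mice. The share of all genes that were lower was 12.6% in Astro-D2KO mice and 13.7% in control mice. Ift122, a core subunit, stood at 6.04, 6.36, 6.19 and 6.50 in Astro-D2KO SE arrays, against 6.74, 6.90, 7.04 and 6.62 in Astro-D2KO saline arrays. It stood at 6.37, 6.37, 6.14 and 6.46 in control SE arrays, against 6.97, 7.03, 7.09 and 6.74 in control saline arrays. The groups did not overlap in either genotype, and the gap was narrowest between Astro-D2KO SE replicate 4 and Astro-D2KO saline replicate 4. Ift122 fell by 0.55 ± 0.12 in Astro-D2KO mice and by 0.63 ± 0.12 in control mice. Ttc21b (IFT139), an outer IFT-A subunit, fell by 0.47 and 0.58 with no overlap in either. Ift140, a core subunit, fell by 0.40 ± 0.075 in control mice, and its -0.19 ± 0.075 in Astro-D2KO mice did not pass. Wdr35 (IFT121), at -0.28 in Astro-D2KO and -0.25 in control mice, and Ift43, at -0.14 and -0.09, did not pass in either.

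IFT-B, the complex of outward transport, has the most genes in the set. Of its 11 genes 7 were lower and 1 higher in Astro-D2KO mice, and 9 were lower and 1 higher in control mice. All genes had shares of 12.6% lower and 7.49% higher in Astro-D2KO mice, and 13.7% lower and 8.42% higher in control mice. Ift46, a core subunit needed for import of outer dynein arms in algae, stood at 6.75, 6.61, 6.79 and 6.92 in Astro-D2KO SE arrays, against 7.46, 7.39, 7.51 and 7.37 in Astro-D2KO saline arrays. It stood at 6.88, 6.81, 6.76 and 6.66 in control SE arrays, against 7.53, 7.45, 7.62 and 7.55 in control saline arrays. No SE array came near a saline array, and Ift46 fell by 0.67 ± 0.079 in Astro-D2KO mice and by 0.76 ± 0.079 in control mice. Ift81, which binds tubulin together with Ift74, stood at 6.61, 6.67, 6.49 and 6.54 in Astro-D2KO SE arrays, against 7.04, 7.10, 7.44 and 7.29 in Astro-D2KO saline arrays. It stood at 6.57, 6.70, 6.79 and 6.85 in control SE arrays, against 7.19, 7.19, 7.28 and 7.19 in control saline arrays. The groups were apart in both genotypes, with falls of 0.64 ± 0.091 and 0.49 ± 0.091.

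Most other core IFT-B genes also fell. Ift74 fell by 0.56 in Astro-D2KO and 0.43 in control mice, and Ift88, whose loss in the Tg737 mouse gives stunted cilia, by 0.44 and 0.28. Ift27, a Rab-like GTPase that links IFT-B to the BBSome, fell by 0.43 in both genotypes, and Ift52, a scaffold of the core, fell by 0.33 and 0.40. Ift22 (Rabl5), another small GTPase, fell by 0.33 in control mice, and its -0.14 in Astro-D2KO mice did not pass. Of the peripheral subunits, Ift80 fell by 0.58 in Astro-D2KO mice and by 0.33 in control mice, and Ift20, which also works at the Golgi, fell by 0.30 in control mice and stood at -0.13 in Astro-D2KO mice, which did not pass. Ift57 did not pass in either, at -0.09 and -0.05. The calls of Ift74 and Ift80 in control mice lay near the threshold (adjusted p = 0.0310 and 0.0470 by limma) and were lost under some of the settings given at the end.

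Ift172, a peripheral IFT-B subunit that in algae takes part in the turnaround of IFT trains at the tip, was higher after SE. It stood at 7.86, 7.76, 7.73 and 7.87 in Astro-D2KO SE arrays, against 7.48, 7.43, 7.56 and 7.38 in Astro-D2KO saline arrays. It stood at 8.05, 8.13, 8.18 and 7.65 in control SE arrays, against 7.52, 7.59, 7.66 and 7.54 in control saline arrays. The Astro-D2KO groups did not overlap, and the control groups overlapped through the array labelled control SE replicate 4. Ift172 rose by 0.34 ± 0.098 in Astro-D2KO mice and by 0.42 ± 0.098 in control mice. The Astro-D2KO call was lost without Astro-D2KO SE replicate 1 or 4 or Astro-D2KO saline replicate 4. Fndc4, a coding gene that neighbours Ift172, rose by 0.80 and 0.60, and Krtcap3 on the other side stood at 0.06 and 0.25 and did not pass. Whether the probe sets share transcripts was not tested.

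**Figure D3:**
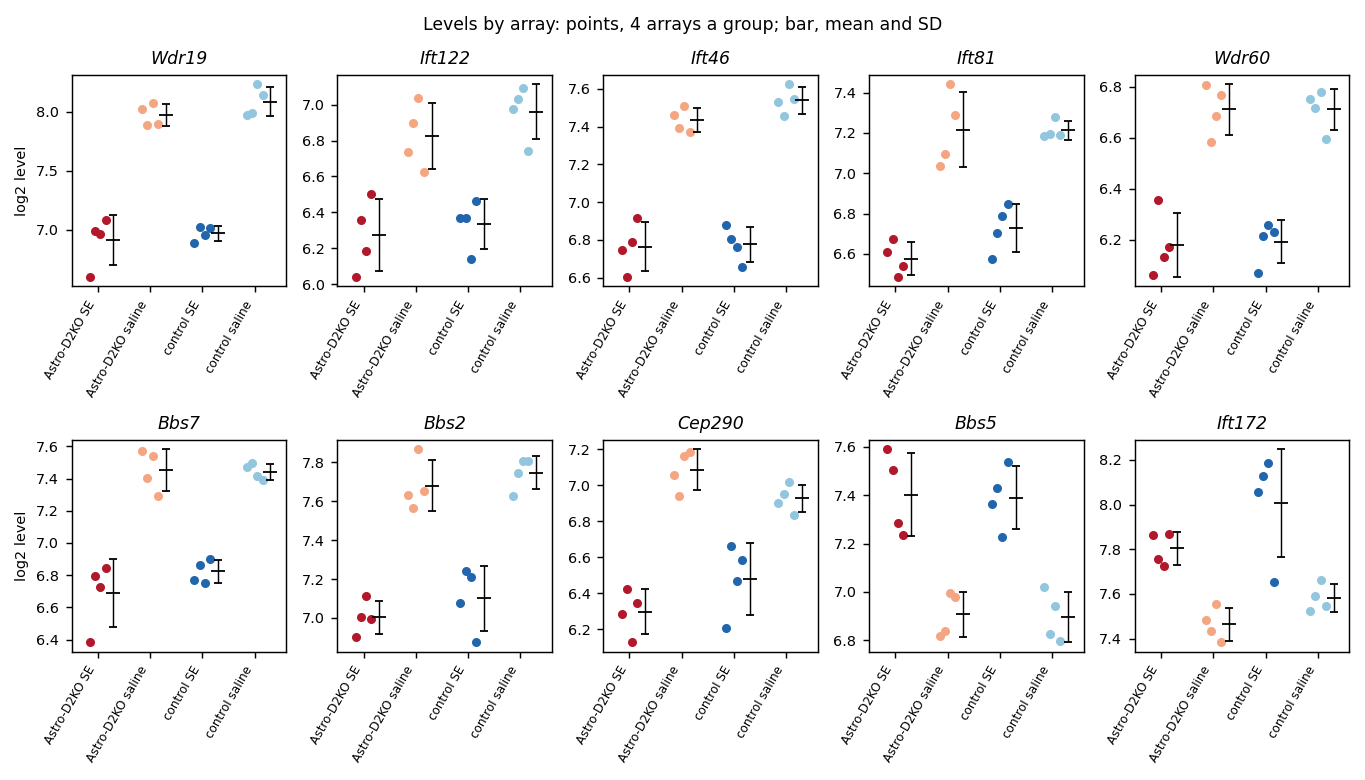
Log2 level of 10 genes in each array (points, 4 a group, in the order of the replicate numbers) with the mean and SD of each group (bars), on a scale of its own for each gene. In the top row and in Bbs7, Bbs2 and Cep290 both SE groups lie below both saline groups, while in Bbs5 they lie above and in Ift172 control SE replicate 4 falls among the saline arrays.

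Motor genes were lower in part. Of 6 genes 3 were lower in Astro-D2KO mice and 4 in control mice, and none was higher. Among all genes, 12.6% were lower and 7.49% higher in Astro-D2KO mice, and 13.7% lower and 8.42% higher in control mice. Wdr60, an intermediate chain of dynein-2, stood at 6.06, 6.36, 6.13 and 6.17 in Astro-D2KO SE arrays, against 6.81, 6.58, 6.69 and 6.77 in Astro-D2KO saline arrays. It stood at 6.07, 6.21, 6.26 and 6.23 in control SE arrays, against 6.75, 6.72, 6.78 and 6.60 in control saline arrays. All SE arrays lay below all saline arrays, and Wdr60 fell by 0.53 ± 0.081 in Astro-D2KO mice and by 0.52 ± 0.081 in control mice. Dync2h1, the dynein-2 heavy chain, fell by 0.31 and 0.23, the second with an adjusted p of 0.0435 by limma. Wdr34, the other intermediate chain, fell by 0.25 in control mice and stood at -0.11 in Astro-D2KO mice, which did not pass. Of the kinesin-2 subunits, Kif3a fell by 0.33 in Astro-D2KO mice and stood at -0.21 in control mice, which did not pass, and Kif3b fell by 0.42 in control mice and stood at -0.27 in Astro-D2KO mice, which did not pass. Kif17, the accessory kinesin-2 motor of neuronal dendrites and cilia, stood at -0.02 and -0.10 and did not pass.

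The BBSome genes held both falls and the largest rise of the set. Of the 8 genes 4 were lower and 1 higher in each genotype. The shares of all genes were 12.6% lower and 7.49% higher in Astro-D2KO mice, and 13.7% lower and 8.42% higher in control mice. Bbs7, a propeller subunit, stood at 6.38, 6.80, 6.73 and 6.85 in Astro-D2KO SE arrays, against 7.57, 7.41, 7.54 and 7.29 in Astro-D2KO saline arrays. It stood at 6.77, 6.86, 6.75 and 6.90 in control SE arrays, against 7.47, 7.50, 7.41 and 7.39 in control saline arrays. The groups did not overlap, and the array labelled Astro-D2KO SE replicate 1 was the lowest. Bbs7 fell by 0.76 ± 0.095 in Astro-D2KO mice and by 0.62 ± 0.095 in control mice. Bbs2, its partner in the BBSome core, stood at 6.90, 7.00, 7.11 and 6.99 in Astro-D2KO SE arrays, against 7.63, 7.57, 7.87 and 7.65 in Astro-D2KO saline arrays. It stood at 7.08, 7.24, 7.21 and 6.88 in control SE arrays, against 7.63, 7.74, 7.81 and 7.80 in control saline arrays. The groups were apart again, with falls of 0.68 ± 0.091 and 0.64 ± 0.091.

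Bbs4, a subunit that binds the satellite protein Pcm1, fell by 0.32 and 0.31, and neither call held without the 4 arrays with the highest choroid plexus means. Bbs9 fell by 0.57 ± 0.13 in Astro-D2KO mice, and its -0.31 ± 0.13 in control mice, where control SE replicate 2 at 7.89 lay among the saline arrays, did not pass. Bbs1, the subunit that binds the small GTPase Arl6, fell by 0.28 in control mice and stood at -0.16 in Astro-D2KO mice, which did not pass. Bbs10 and Bbs12, chaperonin-like proteins that help to assemble the BBSome, did not pass, with values from -0.16 to 0.07 over the genotypes. Bbs5, the subunit that binds phosphoinositides, stood at 7.59, 7.50, 7.28 and 7.23 in Astro-D2KO SE arrays, against 6.82, 6.84, 7.00 and 6.98 in Astro-D2KO saline arrays. It stood at 7.36, 7.43, 7.23 and 7.54 in control SE arrays, against 7.02, 6.83, 6.94 and 6.80 in control saline arrays. All SE arrays lay above all saline arrays of both genotypes, and Bbs5 rose by 0.49 ± 0.094 in each, which is 1.41-fold. Its coding neighbours Lrp2 and Klhl41 did not pass, at -0.01 and 0.08 and at 0.19 and 0.22 in Astro-D2KO and control mice.

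Of the 7 transition zone genes 2 were lower in Astro-D2KO mice and 3 in control mice, and none was higher. For all genes the shares were 12.6% lower and 7.49% higher in Astro-D2KO mice, and 13.7% lower and 8.42% higher in control mice. Cep290, which tethers the gate membrane to microtubules, and Rpgrip1l, which anchors the gate's other modules, fell in both genotypes. Cep290 stood at 6.29, 6.43, 6.13 and 6.35 in Astro-D2KO SE arrays, against 7.06, 6.94, 7.16 and 7.19 in Astro-D2KO saline arrays. It stood at 6.21, 6.66, 6.47 and 6.59 in control SE arrays, against 6.90, 6.95, 7.02 and 6.84 in control saline arrays. The SE and saline arrays did not overlap, and Cep290 fell by 0.79 ± 0.098 in Astro-D2KO mice and by 0.45 ± 0.098 in control mice. Rpgrip1l fell by 0.58 and 0.48. The set holds only part of the MKS module, the membrane gate proper. Further transition zone genes, among them Cc2d2a, are given below. Of the 5 genes of this module in the set, Tctn3 fell by 0.24 in control mice (adjusted p = 0.0434 by limma), and none passed in Astro-D2KO mice. A second, dimmer probe set of Tctn3 gave 0.11 in Astro-D2KO and 0.16 in control mice. B9d1, B9d2, Tctn2 and Mks1 ranged from -0.21 to 0.04 in Astro-D2KO mice and from -0.31 to 0.02 in control mice, and passed in neither. B9d2, with group means from 5.79 to 6.00, lay near the array medians.

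The genotype comparisons did not enter the choice of the set and were tested. Limma called 0 of the 38 genes, and 0% of all genes, between Astro-D2KO and control mice under saline, and likewise 0 and 0% after SE. Dio2, the targeted gene, was not called either. It differed by -1.36 under saline and by -1.41 after SE (adjusted p = 0.999 and 0.532 by limma). An absence of calls here therefore does not show an absence of difference. At an unadjusted p under 0.05 there were 2 of 38 genes under saline and 3 of 38 after SE, against 885 and 1358 of 22180. The median difference of the set was -0.04 under saline and -0.05 after SE. Wdr19 differed by -0.12 under saline (95% interval -0.32 to 0.09) and by -0.06 after SE (-0.27 to 0.15), and neither passed. The difference after SE turned to 0.04 without the array labelled Astro-D2KO SE replicate 1 and to 0.06 without that array and the one labelled control SE replicate 4. Under saline the smallest p values belonged to Mks1, at -0.21 (-0.39 to -0.02), Ift140, at -0.16, and Bbs1, at -0.13. After SE they belonged to Bbs9, at -0.30 (-0.57 to -0.03), B9d1, at 0.26, and Ift80, at -0.26, with adjusted p from 0.766 to 0.795 by limma. The intervals of all 38 genes stayed between -0.39 and 0.47 under saline and between -0.57 and 0.50 after SE, so smaller differences than those were not excluded by 4 arrays a group.

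Whether the response to SE differed between genotypes was asked by the interaction, in which the SE difference in control mice is subtracted from that in Astro-D2KO mice. Limma called 0 of the 38 genes and 0% of all genes, and 1 of the 38 had an unadjusted p under 0.05, against 1031 of 22180. That gene was Cep290, at -0.34 ± 0.14 (95% interval -0.64 to -0.05, adjusted p = 0.998 by limma), with Ift140 at 0.21 and Mks1 at 0.23 next in order of p. Wdr19 was at 0.06 (-0.23 to 0.35), and the median of the set was 0.00. The 9 genes that passed in a single genotype are thus not shown to differ between genotypes, and the intervals of the 38 genes reached from -0.71 to 0.58.

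**Figure D4:**
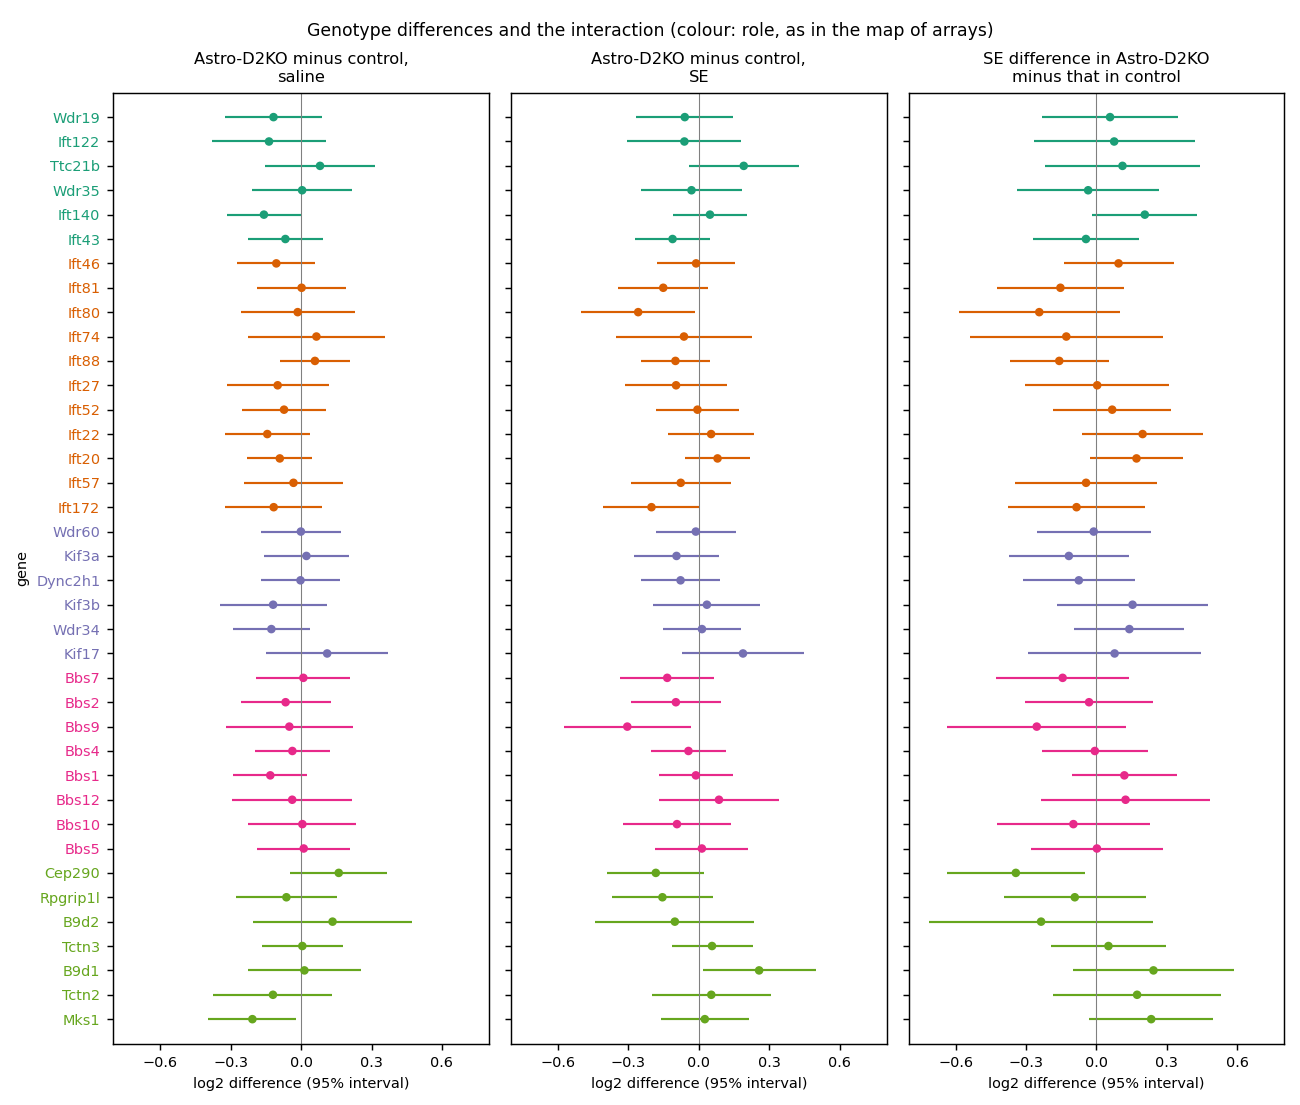
Differences between Astro-D2KO and control mice under saline (left) and after SE (middle) and the interaction (right) for the 38 genes, as log2 differences (points) with 95% intervals of the fit (lines), coloured by role. Most intervals include 0, and none of the 38 genes passed the adjusted threshold in any panel.

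Other ciliary genes were counted from lists drawn up by function with earlier results known. Of all genes, 12.6% were lower and 7.49% higher in Astro-D2KO mice, and 13.7% were lower and 8.42% higher in control mice. Of 14 further IFT, dynein-2 and kinesin-2 genes 6 were lower in Astro-D2KO mice and 8 in control mice, and 0 were higher. Dync2li1, the light intermediate chain of dynein-2, fell by 0.84 ± 0.11 in both, and Tctex1d2, a dynein-2 light chain, fell by 0.62 and 0.53. The IFT-B subunit genes Ttc26 (IFT56) and Ttc30b (IFT70) fell by 0.58 and 0.69 in Astro-D2KO mice and by 0.89 and 0.65 in control mice. The Ttc26 call in Astro-D2KO mice lay near the threshold (adjusted p = 0.0490 by limma), and its groups overlapped there. Of 8 further BBSome genes and partners 3 were lower in each genotype and 1 was higher in control mice. Ttc8 (BBS8), a BBSome subunit, fell by 0.81 ± 0.098 and 0.95 ± 0.098. Lztfl1, a regulator of BBSome entry, fell by 0.52 and 0.40, and Sdccag8, a centrosome protein, by 0.51 and 0.41. Rab3ip, which activates Rab8 at the ciliary base, rose by 0.39 in control mice and stood at 0.20 in Astro-D2KO mice, which did not pass.

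Of 16 further genes of the transition zone and inversin compartment 6 were lower in Astro-D2KO mice and 7 in control mice. The shares of all genes in Astro-D2KO and control mice were 12.6% and 13.7% lower and 7.49% and 8.42% higher. Cc2d2a, a gate scaffold, fell by 1.03 ± 0.077 and 1.01 ± 0.077, close to the size seen for Wdr19. Tmem231 fell by 0.41 and 0.56 and Invs, which encodes inversin, by 0.50 and 0.51, while Tmem67, the gate receptor meckelin, fell by 0.60 in Astro-D2KO mice and its -0.31 in control mice did not pass. Of 22 genes of the basal body and ciliogenesis control 10 were lower in Astro-D2KO mice, and 8 were lower and 1 higher in control mice. Cep97, which caps the mother centriole with Ccp110 and so holds back ciliogenesis, fell by 1.02 ± 0.10 and 0.72 ± 0.10. C2cd3 and 2700049A03Rik (Talpid3), both needed to start a cilium from the centriole, fell by 0.76 and 0.74 in Astro-D2KO mice and by 0.65 and 0.51 in control mice. Cep19 fell by 0.52 and 0.51. The falls thus include a gene known to restrain ciliogenesis and genes known to start it.

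Of 17 genes of ciliary membrane signalling 5 were lower in Astro-D2KO mice and 6 in control mice, and 0 were higher. For this list and the next, the shares of all genes were 12.6% lower and 7.49% higher in Astro-D2KO mice. In control mice they were 13.7% lower and 8.42% higher. Ptch1, the hedgehog receptor, fell by 0.96 ± 0.13 in Astro-D2KO mice, and its -0.30 ± 0.13 in control mice did not pass. Htr6, a serotonin receptor of neuronal cilia, fell by 0.37 in Astro-D2KO mice and stood at 0.10 in control mice, which did not pass. The interaction of Ptch1 was -0.67 ± 0.18 and that of Htr6 -0.48 ± 0.14, and neither passed the adjusted threshold in limma (adjusted p = 0.998 for both). Unc119 and Pde6d carry lipid-anchored proteins to the cilium; Unc119 fell by 0.46 and 0.53, and Pde6d fell by 0.35 in control mice and stood at -0.34 in Astro-D2KO mice, which did not pass. Among 11 RFX and other ciliogenesis transcription factors 3 were lower in each genotype and 1 was higher in control mice. Rfx3, a main regulator of ciliary genes, fell by 0.54 ± 0.14 and 0.76 ± 0.14, and Rfx5, which acts on MHC class II genes, fell by 0.46 and 0.47. Rfx4 rose by 0.74 in control mice, with 0.32 in Astro-D2KO mice not passing, and Gmnc, a switch of multiciliated cells, fell by 0.72 in control mice, with -0.22 in Astro-D2KO mice not passing.

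**Figure D5:**
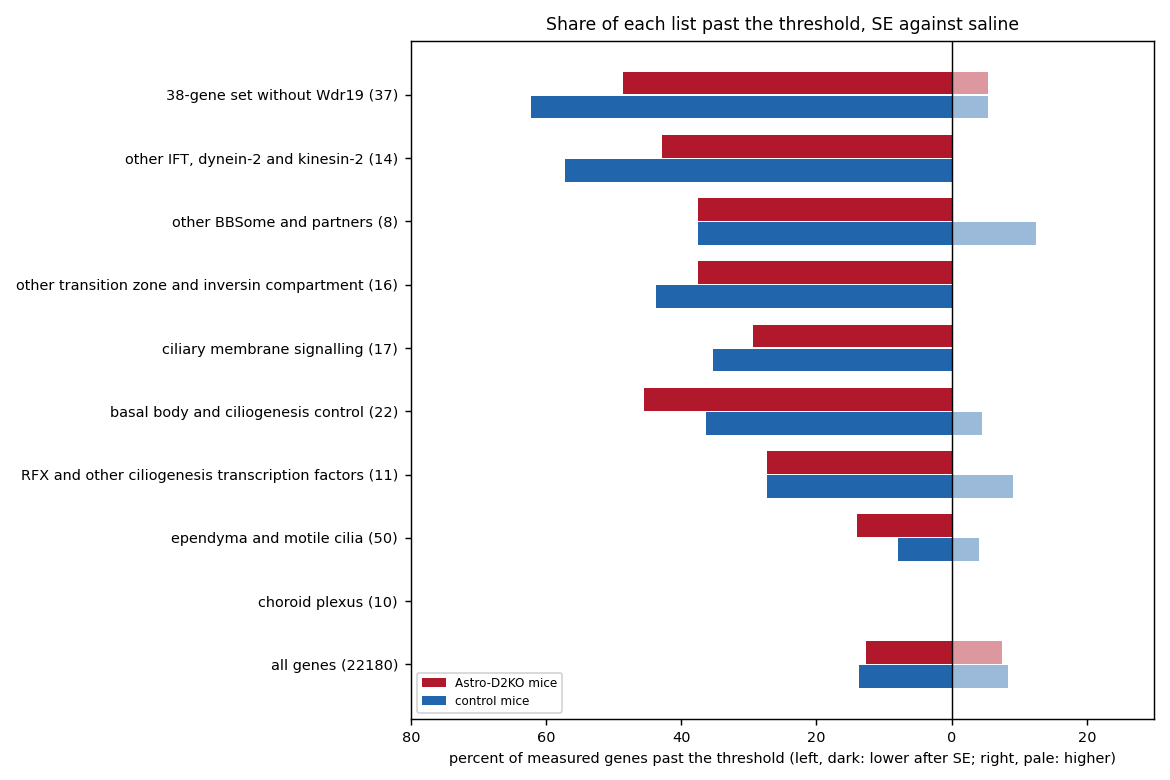
Percent of the measured genes of each list (number in brackets) that passed the threshold after SE, lower to the left and higher to the right, in Astro-D2KO mice (upper bar) and control mice (lower bar). The cilium lists extend further to the left than the bars of all genes, at 12.6% and 13.7%, while those of motile cilia stay near them and choroid plexus has none.

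Genes of motile cilia, which ependymal cells of the ventricle wall carry, were counted beside the set. Of 50 measured markers 7 were lower in Astro-D2KO mice, where 12.6% of all genes were lower, and 4 were lower and 2 higher in control mice, where 13.7% of all genes were lower. Their medians were -0.08 and -0.09, and the difference between these markers and the set was not tested. Their list mean ran from 5.60 to 5.82 in Astro-D2KO SE arrays, from 5.69 to 5.85 in Astro-D2KO saline arrays, from 5.64 to 5.82 in control SE arrays and from 5.65 to 5.97 in control saline arrays. Foxj1, the master factor of motile cilia, lay between 6.03 and 6.54 in all arrays. Of 10 choroid plexus markers 0 passed in either genotype by limma, with 0 at an unadjusted p under 0.05, while their mean varied from array to array as given above. The mean of the 38 genes was 7.03 to 7.11 in Astro-D2KO SE arrays, 7.34 to 7.47 in Astro-D2KO saline arrays, 7.09 to 7.16 in control SE arrays and 7.40 to 7.48 in control saline arrays. The highest of each saline group was replicate 3, the array of its group with the highest choroid plexus mean. This did not hold in the SE groups. Astro-D2KO SE replicate 4, with the highest choroid plexus mean of its group, stood at 7.107, only just below replicate 2 at 7.114. Control SE replicate 1, with the highest choroid plexus mean of its group, was the lowest of that group at 7.088. The part of choroid plexus tissue in these means was not tested.

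Some markers of other cell types also passed after SE, where 12.6% of all genes were lower and 7.49% higher in Astro-D2KO mice and 13.7% were lower and 8.42% higher in control mice. Of 9 dentate granule cell markers 4 were lower in Astro-D2KO mice and 5 in control mice, and 0 were higher, with list means of 7.73 to 7.88 in Astro-D2KO SE, 7.80 to 8.56 in Astro-D2KO saline, 7.54 to 8.02 in control SE and 8.16 to 8.65 in control saline arrays. Of 9 microglia markers 4 were lower in Astro-D2KO mice and 3 in control mice, and 0 were higher, with means of 6.92 to 7.05 and 7.15 to 7.46 in Astro-D2KO SE and saline arrays and of 6.82 to 7.22 and 7.25 to 7.49 in control SE and saline arrays. Pan-neuronal and astrocyte markers were split: of 11 neuron markers 3 were higher and 2 lower in Astro-D2KO mice and 2 higher and 1 lower in control mice, and of 12 astrocyte markers 1 was higher and 1 lower in Astro-D2KO mice and 1 higher and 3 lower in control mice. Of 7 oligodendrocyte markers 2 were lower in Astro-D2KO mice and 0 passed in control mice by limma, where 0 had an unadjusted p under 0.05. Of 10 endothelial markers 4 were higher and 2 lower in each genotype. The part of these cells in the values of the cilium genes was not tested.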

How the data were processed

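Hippocampal RNA of 16 mice was hybridised to Affymetrix arrays. The deposited log2 values were made by the authors with RMA, per the submitters' processing notes, which give no version; the log base is inferred from values between 1.70 and 13.79. RMA normalises by quantiles, so a shift shared by all genes is removed. Of 41345 probe sets, 23521 had 1 gene symbol in the platform annotation, 1814 several and 16010 none. The probe set with the highest mean stood for each of 22180 genes, and 38 of the 38 genes of the set were matched to RefSeq.

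Limma 3.58.1 in R 4.3.3 fitted 4 group means, with 12 residual degrees of freedom and eBayes defaults. P-values are two-sided and adjusted by Benjamini-Hochberg over all genes in each of 5 contrasts, with a threshold of 0.05. Arrays have no depth; the 4 arrays a group limit the precision. Groups come from the sample titles, which do not say that a number pairs mice, and p-values measure the spread between these arrays. The members and lists were chosen with earlier results of these data known. The genes described are Wdr19, every member past the threshold, the 3 smallest p values of a contrast with fewer calls, and up to 4 genes per list by size of difference. Values by array are given for Wdr19 and the 6 members with the smallest adjusted p in each SE contrast; Bbs5 and Ift172, which rose, were added. The fit was tested on simulated data. Promoter windows are RefSeq's (GRCm38.p6). Alternatives were 9 settings, leaving out each of the 16 arrays, and 1 setting added after the data were seen. Among the 9, the setting without control SE replicate 4 and Astro-D2KO SE replicate 1 was also drawn from these data, by their Dio2 values.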

Additional observations from a re-analysis of the deposited data

Results flagged for a closer look

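Among the 28 members named in a contrast, each of the 4 groups was checked for an array that stands apart, which made 112 checks. An array was picked out where its gap to the nearest other array made up more of the group's range than the 95% critical value of Dixon's test allows, as happens by chance in about 1 in 20 groups, and 6 were. The widest gaps, of Ift52 and Dync2h1 in Astro-D2KO groups, are not small beside the SE differences of these genes there, -0.33 and -0.31.

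Dync2h1 in Astro-D2KO saline replicate 3 stood at 7.76, against 7.52 to 7.53 in the other 3 arrays (gap 0.947 of the range). Ift80 in control saline replicate 3 stood at 7.17, against 7.04 to 7.05 (0.945), and Ift81 in the same array at 7.28, against 7.19 (0.913). Ift52 in that array stood at 7.52, against 7.36 to 7.38 (0.882). Both replicate 3 saline arrays were also those with the highest choroid plexus means of their groups, 7.43 in Astro-D2KO saline and 7.81 in control saline, and the part of this in the IFT values was not tested. Ift52 in Astro-D2KO SE replicate 2 stood at 7.25, against 6.91 to 6.94 (0.896), and Ift140 in control saline replicate 2 at 6.96, against 7.07 to 7.08 (0.908).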

How the results depend on the processing

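Under the planned settings, the count of cilium and IFT genes past the threshold after SE was 20 to 22 in Astro-D2KO mice and 21 to 27 in control mice. These settings include the one without the arrays picked by their Dio2 values. The counts of all genes moved too. In the planned settings that tested all 22180 genes, 2527 to 3248 were lower and 1516 to 1992 higher in Astro-D2KO mice. In control mice 2244 to 3380 were lower and 1553 to 1919 higher. With 1 array left out in turn the count of cilium and IFT genes ranged from 20 to 22 and from 21 to 26. All genes then had 2151 to 2950 falls in Astro-D2KO mice and 2372 to 3078 in control mice. Their rises were 1335 to 1757 and 1583 to 1893. The counts of cilium and IFT genes were 0 for both genotype contrasts and the interaction in all these settings. A setting without the array of each group with the highest choroid plexus mean was chosen after seeing the data. It has 12 arrays in place of 16, and its counts were 15 in Astro-D2KO mice and 16 in control mice. All genes then had 1621 and 1927 falls and 1180 and 1432 rises. The log2 difference of Wdr19 between genotypes after SE, -0.060, turned to 0.058 without the arrays labelled control SE replicate 4 and Astro-D2KO SE replicate 1, and ranged from -0.12 to 0.043 with 1 array left out, turning without the array labelled Astro-D2KO SE replicate 1. The interaction of Wdr19, 0.058, turned to -0.043 without the choroid-rich arrays. None of these passed, and the cause was not tested.

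In control mice the calls of Dync2h1, Ift74, Ift80, Tctn3, Wdr34 and Bbs1 were lost under planned settings, and those of Bbs4, Ift22, Ift88 and Kif3b without the choroid-rich arrays. In Astro-D2KO mice the calls of Bbs4, Dync2h1, Ift27, Ift52, Ttc21b and Ift172 were lost without the choroid-rich arrays. Of single arrays left out, control SE 1, 3 or 4 and control saline 1 or 3 ended the Ift74 call in control mice, and control SE 1 or 4 and control saline 1, 3 or 4 that of Wdr34. The Ift80 call there was lost without Astro-D2KO saline 1, any control saline array or control SE 1, 2 or 4. The Dync2h1 call was lost without Astro-D2KO SE 1 or 3, Astro-D2KO saline 1, 2 or 4, control SE 1, 2 or 4, or control saline 2, 3 or 4. The Tctn3 call was lost without Astro-D2KO SE 1 or 2, Astro-D2KO saline 2 or 4, control SE 1, 3 or 4, or control saline 2, 3 or 4. In Astro-D2KO mice the Ift172 call was lost without Astro-D2KO SE 1 or 4 or Astro-D2KO saline 4. Tctn3 stood at -0.04 as the mean of its probe sets. With the replicate block the counts were 21 in Astro-D2KO mice and 22 in control mice. Same-numbered arrays of different groups correlated in their deviations at -0.29 to 0.34, over 0.1 in 4 of 24 pairs. The titles do not say that a number pairs mice, and these values cannot settle whether it does.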
